A study of Mus musculus with 9 samples.

Results

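Gnas, Gm20721 and Nespas are the 3 entries of the deposited count table that carry these names at the Gnas locus of mouse chromosome 2, out of 25965 entries in all. They were chosen by name, with earlier results of these data known, and all 3 passed the filter on low counts. They were followed in sciatic nerves of PINCH1 mutants, PINCH2 mutants and control littermates, all on a C57BL/6 background, with 3 libraries per group. For each library 4 nerves were pooled, those of 1 male together with those of 1 female, with the epineurium stripped away. The labels give postnatal day 15 as the age and the protocol text day 14. The alleles behind the mutants, and the cells they act in, are unknown from the labels. PINCH1 and PINCH2 are LIM-domain adaptor proteins of integrin adhesions, encoded by Lims1 and Lims2.

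Gnas is a compound, imprinted locus. Its best known product is Gsα, the stimulatory G protein subunit that links receptors to adenylyl cyclase and so to cyclic AMP, a signal known in Schwann cells for starting myelination through the receptor Gpr126 (now Adgrg6). Alternative first exons give the chromogranin-like protein Nesp55 from the maternal allele, the large variant XLαs from the paternal allele, and an untranslated transcript that begins at exon 1A. Nespas is a noncoding RNA of the paternal allele, transcribed from the opposite strand across the Nesp55 exons and known for its part in imprinting this locus. Gm20721 is a predicted gene whose function is not described here.

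The entries overlap each other on opposite strands. Coordinates are those of GRCm38, and exons those of the GENCODE M21 annotation, whose spans for the 3 genes equal those in the table. Gnas (ENSMUSG00000027523, plus strand) runs from 174284320 to 174346744 with 24 annotated transcripts. Gm20721 (ENSMUSG00000090625, minus strand) runs from 174330319 to 174346712, is annotated as protein coding with 1 transcript, and lies within the part of Gnas that encodes Gsα. Nespas (ENSMUSG00000086537, minus strand) runs from 174281237 to 174295436, is annotated as antisense with 3 transcripts, and lies at the other end of Gnas.

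**Figure D1:**
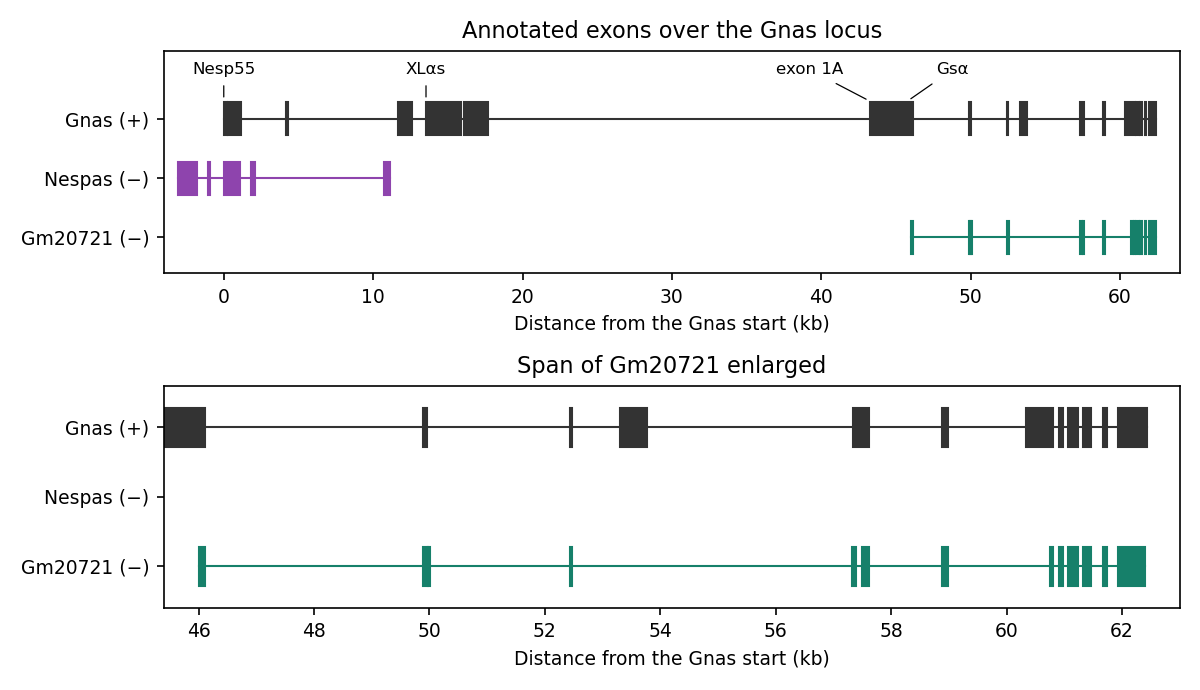
Annotated exons of Gnas (plus strand), Nespas and Gm20721 (both minus strand), merged over the transcripts of each gene, against the distance from the Gnas start in kb. The names above the upper panel mark the first exons of the Gnas products, and the lower panel enlarges the span of Gm20721, whose exons lie on those of Gnas.

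Gm20721 follows the Gsα exons closely. Of its 1484 exonic bases, 1469 (99.0%) lie on Gnas exons. Of its 13 exons, 12 lie on the 12 exons of the Gsα transcript Gnas-208, 4 have both edges in common with it, and 10 have both edges within 4 bp. They cover 96.4% of the Gsα coding bases. The sequences below, read from the GENCODE transcripts, show this at a Gsα coding exon whose edges both models share (exon 10 of Gnas-208, chr2:174345649-174345779). The capitals mark its first 12 bases on the plus strand and their complement in Gm20721.
Gnas-208, plus strand: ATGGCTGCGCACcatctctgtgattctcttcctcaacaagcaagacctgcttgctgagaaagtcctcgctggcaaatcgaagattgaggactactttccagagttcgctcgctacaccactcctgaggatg
Gm20721, minus strand: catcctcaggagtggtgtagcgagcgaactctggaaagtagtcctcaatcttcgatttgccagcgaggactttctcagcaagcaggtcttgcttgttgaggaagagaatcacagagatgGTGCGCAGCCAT

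The cassette exon that separates the long from the short form of Gsα shows where the models part. It is exon 3 of Gnas-208 (chr2:174336747-174336791, plus strand), and the capitals mark the 30 of its 45 bases that also lie within a Gm20721 exon.
Gnas-208 exon 3: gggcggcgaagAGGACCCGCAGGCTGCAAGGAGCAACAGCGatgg

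Nespas overlaps a different part of Gnas. A total of 988 of its 3143 exonic bases (31.4%) lie on Gnas exons and 0 on Gm20721 exons. All 759 coding bases of Nesp55 lie within 1 transcript of Nespas. The first 120 of these (chr2:174284674-174284793) are shown on both strands, with the Nesp55 start codon and its complement in capitals.
Gnas-210, plus strand: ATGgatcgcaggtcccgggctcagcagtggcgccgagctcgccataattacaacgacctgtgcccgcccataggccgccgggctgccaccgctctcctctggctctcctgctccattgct
Nespas, minus strand: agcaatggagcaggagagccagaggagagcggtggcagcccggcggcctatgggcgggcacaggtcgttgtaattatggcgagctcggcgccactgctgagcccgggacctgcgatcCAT

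Gnas itself has 11186 exonic bases, of which 78.0% lie on neither of the others, including the whole XLαs first exon. Neither the strandedness of the libraries nor the strand setting of the counting is stated by the labels. A count under Gm20721 therefore cannot be told apart from transcription of the Gsα exons of Gnas. For Nespas and Nesp55 the same limit holds on the 31.4% of Nespas exonic bases that lie on Gnas exons. Where on Nespas its counts fell is not known.

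Library totals ran from 957828 to 1204964 counts. The targeted genes had too few counts to check the labels: Lims1 had 0 to 3 counts in PINCH1 mutants, 0 to 9 in PINCH2 mutants and 3 to 7 in controls, and Lims2 had 1 to 5, 1 to 5 and 1 to 9 in the same groups. Of 10 Schwann cell markers, among them the myelin genes Mbp and Pmp22, 8 had counts in every library. Their summed level was 6230 to 7320 CPM (counts per 1e6 library counts, with TMM scaling) in PINCH1 mutants, 6320 to 7230 in PINCH2 mutants and 8190 to 9160 in controls. Neuron markers, of which Snap25 had no count, summed to 57.9 to 129 CPM, 118 to 186 CPM and 94.2 to 168 CPM in the same order of groups, and skeletal muscle markers to at most 8.06 CPM in any library. In bulk tissue, fewer cells of a type and less RNA per cell cannot be told apart. With the strand setting unknown, counts under a marker's name also need not come from that gene's own strand.

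Gm20721 held nearly all counts of the locus and did so in every library. It had 46652, 49172 and 53735 counts in the PINCH1 mutants. The PINCH2 mutants had 42327, 58722 and 44174, and the controls 44897, 52552 and 44402. The groups overlapped throughout, and Gm20721 was the entry with the second highest count in each of the 9 libraries, holding 4.03% to 5.13% of all counts. Per kb of exon, its mean level was 32170 ± 4771 CPM in PINCH1 mutants, 31070 ± 1767 CPM in PINCH2 mutants and 30480 ± 3355 CPM in controls (SD, n = 3 each).

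With the strand setting unknown, counts under Gnas need not come from its own strand. A low count there need not mean little transcription of the Gsα exons. Gnas, on whose exons Gm20721 lies, had few counts. There were 63, 38 and 41 in the PINCH1 mutants, with 50, 81 and 74 in the other mutant and 66, 107 and 64 in the controls. The PINCH1 mutants had fewer counts than any control, though PINCH1 mutant replicate 1 and control replicate 3 differed by a single count, PINCH2 mutants overlapped both, and control replicate 2 stood above all other libraries. Scaled to CPM, the PINCH1 mutants and controls overlapped, with 57.46 CPM in PINCH1 mutant replicate 1 and 57.34 CPM in control replicate 3. The mean Gnas level per kb of exon was 4.02 ± 1.05 CPM in PINCH1 mutants, 5.81 ± 0.982 CPM in PINCH2 mutants and 6.75 ± 2.02 CPM in controls (SD, n = 3 each).

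Nespas stood between them in counts. The PINCH1 mutants had 274, 131 and 191, whereas PINCH2 mutants had 124, 167 and 121. Controls had 47, 154 and 75, so that control replicate 2 lay among the mutants and the other controls below all 6 of them. The mean Nespas level per kb of exon was 59.2 ± 17.7 CPM in PINCH1 mutants, 41.6 ± 2.89 CPM in PINCH2 mutants and 27.7 ± 16.3 CPM in controls (SD, n = 3 each). In each group the order of these levels per kb was Gm20721, Nespas, Gnas.

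**Figure D2:**
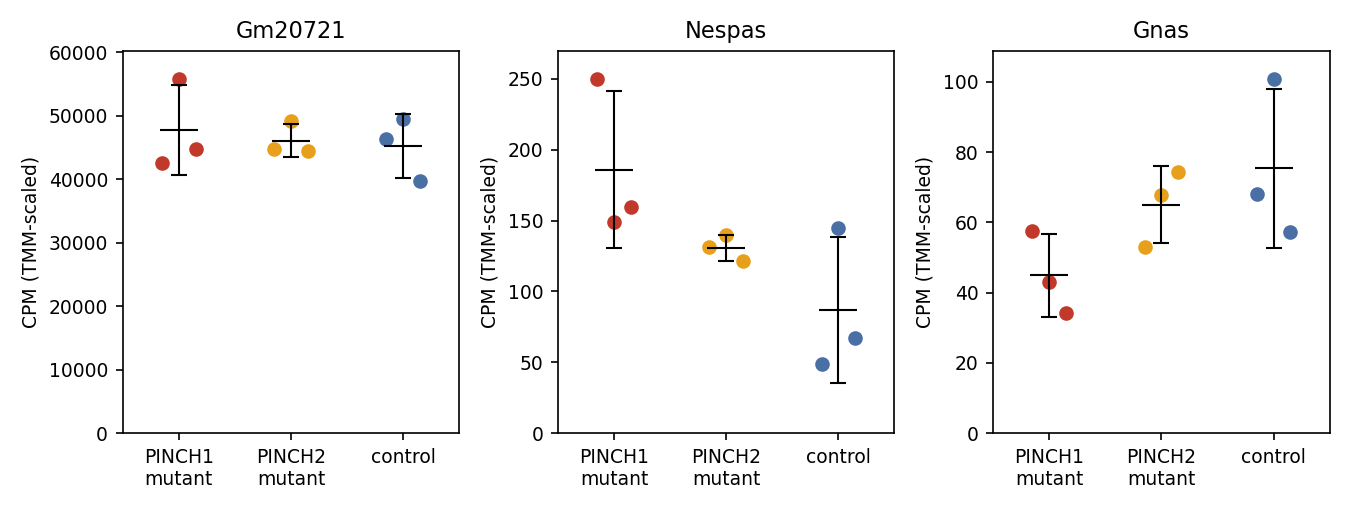
TMM-scaled CPM of Gm20721, Nespas and Gnas in each library, with PINCH1 mutants, PINCH2 mutants and controls from left to right. Points are libraries, horizontal bars means and error bars SD (n = 3 each), and the vertical scale differs between panels. Gm20721 is level across groups, while Nespas averages 186 CPM in PINCH1 mutants and 87.0 CPM in controls.

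Overlapping opposite-strand pairs, this one included, give the measure of how far the counts at this locus leaned to 1 entry. There were 103 cases in which at least 80% of an entry's exonic bases lay on exons of an opposite-strand entry and the pair had at least 100 counts over the 9 libraries. The covered entry held a median of 96.5% of the pair's counts in these cases. It held over 50% in 81 of the 103 cases and all but at most 1% in 35, so such a lean was common. Gm20721 held 99.866%, and 0 of the others had a higher share or a larger summed count.

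Setting PINCH1 mutants against controls asks whether the level of each entry differs when PINCH1 is mutated. Nespas averaged 186 ± 55.6 CPM in PINCH1 mutants and 87.0 ± 51.2 CPM in controls (SD, n = 3 each), 2.14-fold higher as fitted. Gnas averaged 44.9 ± 11.7 CPM in PINCH1 mutants and 75.5 ± 22.6 CPM in controls, a fitted ratio of 0.596. Gm20721 averaged 47730 ± 7080 CPM and 45240 ± 4978 CPM in these groups, a ratio of 1.06. None of the 3 passed the edgeR threshold of an adjusted p of 0.05, which 0.0633% of the 4738 tested entries did.

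By edgeR's quasi-likelihood test the log2 fold change of Nespas was 1.09 (SE 0.32, unadjusted p = 0.00389, adjusted p = 0.443), that of Gnas -0.75 (SE 0.29, unadjusted p = 0.017, adjusted p = 0.65) and that of Gm20721 0.08 (SE 0.13, adjusted p = 0.967). Nespas and Gnas were thus 2 members with an unadjusted p under 0.05, which 6.37% of all tested entries had. DESeq2 and limma-voom also called 0 of the 3, with the same 2 under that unadjusted level. All 3 PINCH1 mutant libraries lay above all controls in Nespas CPM, as did 6.16% of the tested entries, but by a narrow margin, with 148.7 CPM in the lowest mutant and 145.1 CPM in control replicate 2. Nespas did pass without control replicate 2 (log2 fold change 1.68, adjusted p = 0.00264), with every entry with counts kept (adjusted p = 0.00413) and where entries needed 1 CPM in 3 or more libraries (adjusted p = 0.00317). The adjusted p ran from 0.00264 to 0.986 over the libraries left out in turn. Gnas was at -0.48 without control replicate 2 (edgeR adjusted p = 0.817).

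In PINCH2 mutants the differences from controls had the same signs and were smaller. Nespas averaged 130.9 ± 9.07 CPM in PINCH2 mutants and 87.0 ± 51.2 CPM in controls (SD, n = 3 each), and Gnas 65.03 ± 10.98 CPM and 75.5 ± 22.6 CPM. Their edgeR log2 fold changes were 0.59 (SE 0.32, adjusted p = 0.999) and -0.21 (SE 0.28, adjusted p = 0.999), and that of Gm20721 was 0.03 (SE 0.13, adjusted p = 0.999). None passed, where 0.0211% of all tested entries did. With edgeR and DESeq2 0 had an unadjusted p under 0.05, as 4.26% of all tested entries did with edgeR, and 1, Nespas, did with limma-voom. The comparison shares its controls with that of the PINCH1 mutants, so the signs are not independent. The Gnas value changed sign, to 0.05, without control replicate 2, and that of Nespas was 1.17 without control replicate 2 (adjusted p = 0.502) and 0.3 without control replicate 1 (adjusted p = 0.944).

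PINCH1 and PINCH2 mutants were also compared directly, which asks whether the mutants differ from each other. The edgeR log2 fold change, as PINCH1 minus PINCH2 mutants, was 0.51 for Nespas (SE 0.31, adjusted p = 0.909), -0.53 for Gnas (SE 0.29, adjusted p = 0.856) and 0.05 for Gm20721 (SE 0.13, adjusted p = 0.99). None passed, against 0.0844% of all tested entries, and 0 had an unadjusted p under 0.05 with edgeR, DESeq2 or limma-voom, as 6.35% of all entries did with edgeR. Nespas in the PINCH1 mutants lay above all PINCH2 mutants without overlap, as did 5.42% of the tested entries.

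**Figure D3:**
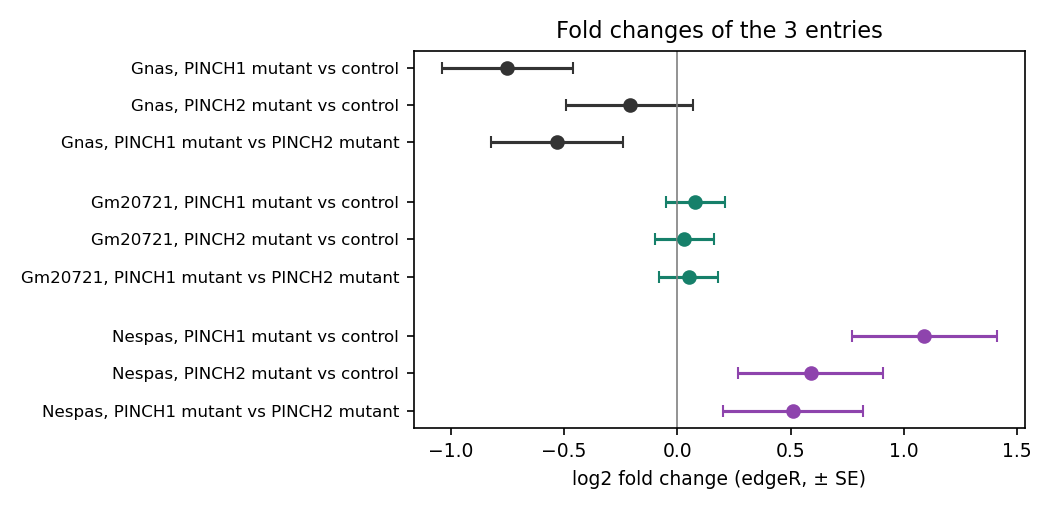
edgeR log2 fold changes of the 3 entries in the 3 comparisons (points) with their SE (bars). The Gnas points lie below 0, the Nespas points above 0 and the Gm20721 points within 0.08 of 0; in no comparison did an adjusted p pass 0.05.

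The fold changes of Nespas and Gnas had opposite signs in each comparison, though none passed. Their counts were therefore set against each other within each library, a ratio that does not depend on scaling between libraries. This ratio was chosen after the values were seen. Nespas made up 81.3%, 77.5% and 82.3% of the Nespas and Gnas counts in the PINCH1 mutants. The PINCH2 mutants had 71.3%, 67.3% and 62.05%, and the controls 41.6%, 59.0% and 53.96%. The 3 groups did not overlap, with PINCH1 mutants highest and controls lowest. How often other pairs of entries separate the groups in this way was not counted. Between 113 and 337 counts stood behind each share, and the exact 95% binomial interval ran from 76.7% to 85.3% in PINCH1 mutant replicate 1 and from 52.8% to 65.03% in control replicate 2. These intervals cover counting error only. With the strand setting unknown, the share need not be one of antisense against sense transcription.

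The mean share of Nespas was 80.4 ± 2.54% in PINCH1 mutants, 66.9 ± 4.62% in PINCH2 mutants and 51.5 ± 8.96% in controls (SD, n = 3 each). The difference was 28.9 percentage points between PINCH1 mutants and controls, 15.4 between PINCH2 mutants and controls and 13.5 between the mutants. Each had a two-sided exact permutation p of 0.1, the smallest that 3 against 3 libraries allow, so that none could pass 0.05. As the ratio was chosen after the values were seen, these p-values lend it no support. Without control replicate 2 the first difference was 32.6 points and the second 19.1. The summed Schwann cell markers also separated both mutants from the controls without overlap, and their part in this result was not tested. How often sums of other entries do so was not counted.

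Gnas relative to Gm20721 gave a like but less clear order. There were 1.35, 0.773 and 0.763 Gnas counts per 1000 Gm20721 counts in the PINCH1 mutants, 1.18, 1.38 and 1.68 in the PINCH2 mutants and 1.47, 2.04 and 1.44 in the controls. PINCH1 mutants lay below controls without overlap, while PINCH2 mutants overlapped both. For this ratio, too, no share over other pairs of entries was counted. As a share of the counts of these 2 entries, Gm20721 stood at 99.904 ± 0.0336% in PINCH1 mutants, 99.859 ± 0.0248% in PINCH2 mutants and 99.835 ± 0.0334% in controls (SD, n = 3 each). The two-sided exact permutation p was 0.1 for PINCH1 mutants against controls, 0.4 for PINCH2 mutants against controls and 0.2 between the mutants.

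**Figure D4:**
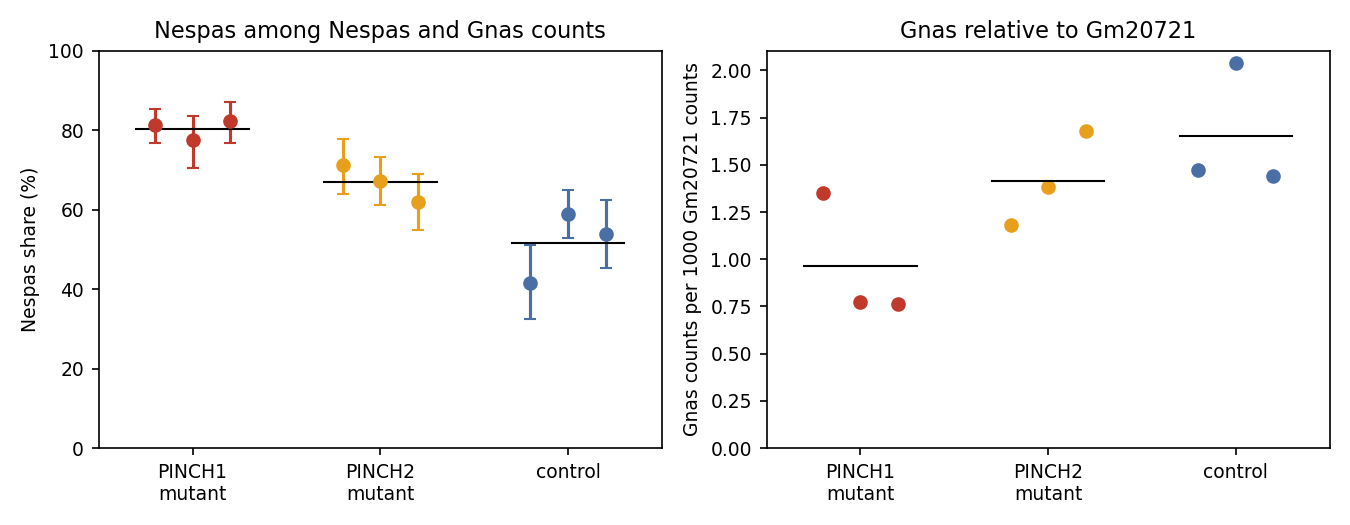
Share of Nespas among Nespas and Gnas counts in each library (left, in percent, bars exact 95% binomial intervals) and Gnas counts per 1000 Gm20721 counts (right), for PINCH1 mutants, PINCH2 mutants and controls. Horizontal lines are group means. The Nespas share was chosen after the values were seen, and with the strand setting unknown it need not be a share of antisense transcription. Its values in the 3 groups do not overlap, at 77.5% or more in PINCH1 mutants and 59.0% or less in controls.

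The level of the whole locus, the summed CPM of the 3 entries, followed Gm20721. It was 47965 ± 7040 in PINCH1 mutants, 46309 ± 2630 in PINCH2 mutants and 45401 ± 5030 in controls (SD, n = 3 each). The groups overlapped in every comparison, with two-sided exact permutation p of 0.7, 1 and 0.8 for PINCH1 mutants against controls, PINCH2 mutants against controls and PINCH1 against PINCH2 mutants. Leaving out 1 library turned the sign of each difference, at -1450 CPM and -2360 CPM without PINCH1 mutant replicate 2 for PINCH1 mutants against controls and against PINCH2 mutants, and -1840 CPM without control replicate 3 for PINCH2 mutants against controls.

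Across the 9 libraries, the entries did not move together in a way the test could detect. For Gnas and Gm20721, Pearson's r of log2 CPM was 0.02 and Spearman's rho 0.07 (exact permutation p = 0.965 and 0.88; adjusted over 3 relations 0.965 and 0.88). Without the 2 libraries farthest from the median of Gnas, r was -0.41 (exact permutation p = 0.369). For Gnas and Nespas r was -0.2 and rho -0.38 (exact permutation p = 0.619 and 0.312; adjusted 0.928 and 0.88). When each library was taken as its deviation from its own group's mean, r for Gnas and Nespas was 0.71 and rho 0.67 (exact permutation p = 0.0269 and 0.0589; adjusted 0.0807 and 0.177). Neither value passed after adjustment, and deviations of libraries in the same group are not independent of each other. In controls and in PINCH1 mutants the library highest in Gnas was also highest in Nespas. In PINCH2 mutants replicate 3 had the highest Gnas (74.37 CPM) and the lowest Nespas (121.6 CPM). The group means of the 2 entries were ordered in opposite directions. For Nespas and Gm20721 r was 0.19 and rho 0.2 (exact permutation p = 0.619 and 0.613; adjusted 0.928 and 0.88).

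The tested entries most like Gnas and Gm20721 were found by the root-mean-square difference of log2 CPM over the 9 libraries after removing each entry's mean. Those nearest to Gnas were Mfn2, a mitochondrial fusion gene (0.19), Peg3, an imprinted zinc finger gene expressed from the paternal allele (0.193), and Nek1, a kinase gene (0.235), against a median of 0.57 over all tested entries. Peg3 averaged 47.6 ± 15.8 CPM in PINCH1 mutants, 63.5 ± 14.1 CPM in PINCH2 mutants and 64.3 ± 9.9 CPM in controls (SD, n = 3 each). These entries were picked as the closest of all tested ones, so their small distances follow from the choice. A link to imprinting was not tested. Nearest to Gm20721 were Carm1, an arginine methyltransferase gene over Yipf2 (0.058), Esrp2, a splicing regulator gene over Nfatc3 (0.061), and Rffl, a ubiquitin ligase gene over Lig3 (0.061), against a median of 0.45.

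The entries around the locus had few counts. With the strand setting unknown, these need not measure the transcription of the genes themselves. Within 250 kb of Gnas the table held 8 other entries, with 0 to 44 counts in a library, and 4 were tested. Ctsz, which encodes the lysosomal protease cathepsin Z and lies over Nelfcd on the opposite strand, had the most. It averaged 24.1 ± 4.16 CPM in PINCH1 mutants, 21.5 ± 2.08 CPM in PINCH2 mutants and 29.2 ± 14.7 CPM in controls (SD, n = 3 each). Its edgeR log2 fold change was -0.26 in PINCH1 mutants (SE 0.37, adjusted p = 0.943) and -0.43 in PINCH2 mutants (SE 0.38, adjusted p = 0.999) against controls. Those of Stx16, a syntaxin gene that in human holds an element needed for imprinting of this locus, were 0.28 (SE 0.8) and -0.67 (SE 0.85). Npepl1, an aminopeptidase gene, was at -0.19 (SE 0.59) and -0.09 (SE 0.59), and the antisense entry Gm10714 at 0.13 (SE 0.71) and 0.3 (SE 0.7). None of the 4 passed in any comparison. The high counts at this place were thus those listed under Gm20721, which cannot be told apart from transcription of the Gsα exons. The neighbouring entries did not share them.

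The genes that work with Gsα were examined through a list of 80 Gs and cyclic AMP pathway genes, of which 79 were in the table and 26 were tested. With edgeR 0 of them passed in any of the 3 comparisons; 2, 3 and 2 had an unadjusted p under 0.05 in PINCH1 mutants against controls, PINCH2 mutants against controls and PINCH1 against PINCH2 mutants, and DESeq2 and limma-voom also called 0. Over all tested entries, 6.37%, 4.26% and 6.35% had such an unadjusted p in these comparisons. In PINCH1 mutants 16 of the 26 had a log2 fold change below 0 against controls, with a median of -0.26, beside 52.2% below 0 and a median of -0.02 over all tested entries. In PINCH2 mutants 15 were below 0 against controls, with a median of -0.19, beside 49.3% and 0 over all entries. Counts under these names carry the same limit as those of Gnas, and 11 of the 26 lie over exons of an opposite-strand gene.

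Of the receptors, 2 were tested, both with a partner on the other strand. The prostaglandin receptor gene Ptger4, over Ttc33 and Gm15937, averaged 76.3 ± 4.4 CPM in PINCH1 mutants, 65.5 ± 5.35 CPM in PINCH2 mutants and 62.3 ± 11.7 CPM in controls (SD, n = 3 each). Gpr126, the receptor that raises cyclic AMP at the onset of myelination, averaged 15.3 ± 2.52, 10.5 ± 3.93 and 14.8 ± 8.57 CPM in the same groups, over Gm46212. For neither did the log2 fold change against controls exceed its error by much, at 0.29 (SE 0.24) and 0.05 (SE 0.49) in PINCH1 mutants and 0.07 (SE 0.24) and -0.48 (SE 0.5) in PINCH2 mutants.

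Of the G protein subunits, 13 were tested and 11 were below 0 in PINCH1 mutants against controls, with a median of -0.42, and 8 in PINCH2 mutants, with a median of -0.21. Over all tested entries 52.2% and 49.3% were below 0 in these comparisons, with medians of -0.02 and 0. Both tested receptors and all 3 tested phosphodiesterases were above 0 in PINCH1 mutants. Gnal, the close relative of Gsα known from olfactory neurons and striatum, lies over Mppe1 and was above 0, at 0.26 (SE 0.17, edgeR adjusted p = 0.837) in PINCH1 mutants and 0.25 (SE 0.17, adjusted p = 0.999) in PINCH2 mutants. Gnai2, which encodes an inhibitory subunit and has no such partner, averaged 119 ± 14.9 CPM in PINCH1 mutants, 187 ± 66.0 CPM in PINCH2 mutants and 168 ± 41.8 CPM in controls (SD, n = 3 each). Its log2 fold change was -0.49 (SE 0.25, edgeR adjusted p = 0.776) in PINCH1 mutants and 0.15 (SE 0.24, adjusted p = 0.999) in PINCH2 mutants. The 2 entries of the list with an unadjusted p under 0.05 in PINCH1 mutants, named after their values were seen, encode a Gβ and a Gγ subunit. Gng2, over Gm48283, had 62, 44 and 58 counts in PINCH1 mutants, 51, 70 and 47 in PINCH2 mutants and 68, 104 and 110 in controls. Gnb1 had 19, 17 and 32 counts, 15, 43 and 24 counts and 44, 38 and 51 counts in these groups. In both genes the PINCH1 mutants lay below the controls without overlap, as did 7.49% of all tested entries in CPM. Against controls, Gng2 was at -0.78 (SE 0.25, edgeR adjusted p = 0.488) in PINCH1 mutants and -0.74 (SE 0.25, adjusted p = 0.999) in PINCH2 mutants, and Gnb1 at -0.99 (SE 0.35, adjusted p = 0.58) and -0.72 (SE 0.35, adjusted p = 0.999). Gna12, over Amz1, was the third with an unadjusted p under 0.05 in PINCH2 mutants, at -0.94 (SE 0.43, adjusted p = 0.999).

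Downstream of the G protein, 4 adenylyl cyclase entries were tested. Adcy3, over Cenpo, was at -0.1 (SE 0.33) in PINCH1 mutants and -0.21 (SE 0.33) in PINCH2 mutants, and Adcy1 at -0.64 (SE 0.41) and 0.14 (SE 0.39). Of the 3 tested entries for protein kinase A and its anchors, the regulatory subunit gene Prkar1a was at -0.36 (SE 0.35) and -0.65 (SE 0.35), and the anchor gene Akap9, over Cyp51, at 0.3 (SE 0.31) and 0.19 (SE 0.31). The phosphodiesterase gene Pde3b, whose product breaks down cyclic AMP, averaged 52.6 ± 12.6 CPM in PINCH1 mutants, 26.5 ± 7.86 CPM in PINCH2 mutants and 35.8 ± 7.42 CPM in controls (SD, n = 3 each). Its difference was largest between the mutants, at 0.98 (SE 0.33, edgeR adjusted p = 0.602). Pde8b, over Gm48420, was at 0.07 (SE 0.32) in PINCH1 mutants and 0.03 (SE 0.32) in PINCH2 mutants, and Creb1, the transcription factor gene of the pathway, at -0.78 (SE 0.64) and -0.72 (SE 0.64).

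**Figure D5:**
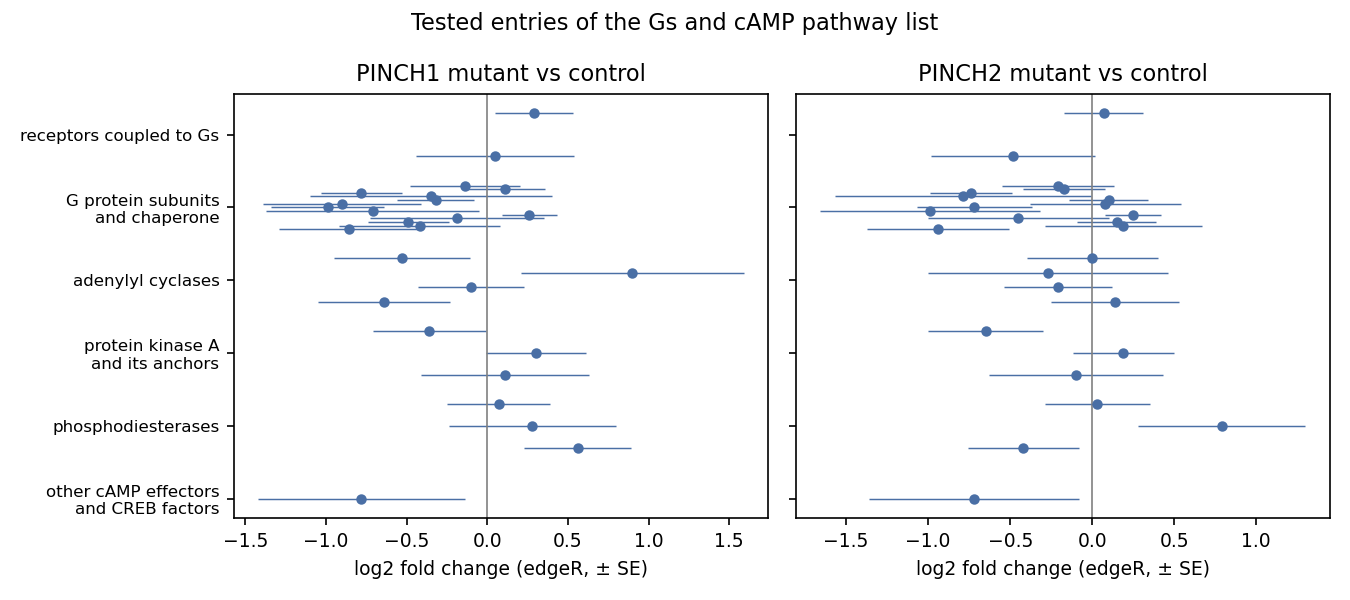
edgeR log2 fold changes (points) with SE (bars) of the 26 tested entries of the Gs and cyclic AMP pathway list, by role, in PINCH1 mutants against controls (left) and PINCH2 mutants against controls (right). Of the 13 G protein subunit entries, 11 lie below 0 on the left and 8 on the right, beside 52.2% and 49.3% of all tested entries. The 2 receptor and 3 phosphodiesterase entries all lie above 0 on the left, and 0 entries passed an adjusted p of 0.05.

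Other imprinted genes were followed as the second list, of which 46 of 50 were in the table and 17 were tested. With edgeR 0 passed in any comparison, with 0, 0 and 1 at an unadjusted p under 0.05 in PINCH1 mutants against controls, PINCH2 mutants against controls and PINCH1 against PINCH2 mutants, and DESeq2 and limma-voom called 0. The shares of all tested entries at that level were 6.37%, 4.26% and 6.35%. In each mutant 11 of the 17 were below 0 against controls, with medians of -0.14 in PINCH1 mutants and -0.09 in PINCH2 mutants. Over all tested entries 52.2% were below 0 in PINCH1 mutants, with a median of -0.02, and 49.3% in PINCH2 mutants, with a median of 0. Inpp5f, of which a variant is known to be expressed from the paternal allele in brain, had the highest level among the paternal entries, at 525 ± 43.8 CPM in PINCH1 mutants, 603 ± 144 CPM in PINCH2 mutants and 642 ± 105 CPM in controls (SD, n = 3 each). Mest, over Copg2, was at -0.14 (SE 0.17) and 0.14 (SE 0.17) in the PINCH1 and PINCH2 mutants against controls.

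Maternally expressed H19, a long noncoding RNA, was at -0.38 (SE 0.26) in PINCH1 mutants and -0.14 (SE 0.26) in PINCH2 mutants against controls, and Meg3, another noncoding RNA, at -0.26 (SE 0.38) and -0.06 (SE 0.37). Copg2, a coatomer gene that overlaps Mest, averaged 2870 ± 308 CPM in PINCH1 mutants, 1660 ± 703 CPM in PINCH2 mutants and 1900 ± 809 CPM in controls (SD, n = 3 each). Its log2 fold change was 0.59 (SE 0.37, edgeR adjusted p = 0.847) in PINCH1 mutants and -0.2 (SE 0.37, adjusted p = 0.999) in PINCH2 mutants. Commd1, the gene within which the imprinted Zrsr1 lies, was at -0.05 (SE 0.18) and -0.11 (SE 0.18).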

How the data were processed

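RNA was extracted from pooled nerves and sequenced from TruSeq libraries, per the labels' protocols. The submitters' processing notes name HISAT2 2.0.5, Trim Galore 0.4.2 and cutadapt 1.9.1, with the build GRCm38. For the counting tool, strand setting and annotation release, nothing is stated. The authors deposited raw read counts for 25965 entries, with no scaling. Counts were tested with edgeR 4.0.16 (R 4.3.3): TMM scaling, the filterByExpr filter, which kept 4738 entries, a robust quasi-likelihood fit, and genotype as the only term over all 9 libraries. P-values were Benjamini-Hochberg adjusted over all tested entries and measure the spread between pools. SE was obtained from the log2 fold change and the F statistic. Replicates within a group differed by 4.3 to 12.6 times the chi-square per degree of freedom that counting error alone gives. Log2 CPM for relations used a prior count of 2.

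Exons came from GENCODE M21, in which 96.4% of the table's gene IDs were found, and overlaps from bedtools 2.31.1. Named entries were the 3 members, the tested neighbours within 250 kb, the 3 entries most like Gnas and the 3 most like Gm20721, and per list every entry past the threshold and the 2 with the highest mean CPM in each role; Gng2, Gnb1 and Gna12 were added after their values were seen. Shares of counts and the summed CPM of the members were compared by exact permutation over libraries. Members and lists were chosen with earlier results of these data known. Alternatives were RLE and upper-quartile scaling, DESeq2 1.42.0, limma-voom (limma 3.58.1), other filters, the 6 libraries compared alone, a threshold of 0.01 on the adjusted p, the replicate number as a block and each library left out in turn. A cell type marker is not reported here and was left out of the summed marker levels.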

Additional observations from a re-analysis of the deposited data

How the results depend on the processing

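The difference between groups in the Nespas share of Nespas and Gnas counts moved only within the replicate spread in the settings run. With a library left out it ran from 23.9 to 32.6 points for PINCH1 mutants against controls, 10.4 to 19.1 for PINCH2 mutants against controls and 11.1 to 15.7 between the mutants. Nespas in PINCH1 mutants against controls had log2 fold changes from 0.82 to 1.68 with a library left out, 1.1 with no filter and 1.09 with the filter of 1 CPM in 3 libraries, and the last 2 settings brought it past the threshold; the cause was not tested. Gm20721 changed sign in some settings, always close to 0. With a library left out it ran from -0.05 to 0.16 in PINCH1 mutants against controls, -0.06 to 0.1 in PINCH2 mutants against controls and -0.07 to 0.13 between the mutants, and with upper-quartile scaling it was -0.01 in PINCH2 mutants against controls. Gnas in PINCH2 mutants against controls ran from -0.38 to 0.05. The r of Gnas and Gm20721 ran from -0.21 to 0.46 with a library left out. With Nespas in the denominator, the difference in the Gm20721 share was -0.144 points for PINCH1 mutants against controls, -0.0707 for PINCH2 mutants against controls and -0.0734 between the mutants. The difference in summed CPM ran from -1450 to 5120 for PINCH1 mutants against controls, -1840 to 3090 for PINCH2 mutants against controls and -2360 to 4210 between the mutants with a library left out, and was -131 in PINCH2 mutants against controls with upper-quartile scaling. Nespas in PINCH2 mutants against controls ran from 0.3 to 1.17. Counts of 38 to 107 for Gnas per library limit the precision of its fold changes. Both lists had 0 calls in every setting.

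Counts of all entries called varied more. In PINCH1 mutants against controls, where 1 was higher and 2 were lower, there were 3 higher and 4 lower with DESeq2, 8 and 7 with no filter and 8 and 8 with the 1 CPM filter; 0 were lower with limma-voom, the 6 libraries alone and an adjusted p of 0.01. With a library left out 1 to 4 were higher and 0 to 5 lower. In PINCH2 mutants against controls, 0 were lower in place of 1 with limma-voom, the 6 libraries alone and an adjusted p of 0.01, and 0 to 1 with a library left out. Between the mutants, where 2 were higher and 2 lower, 4 were lower with DESeq2 and 1 with limma-voom, 12 were higher and 8 lower with no filter, 13 higher and 14 lower with the 1 CPM filter, and 5 higher with the 6 libraries alone. With a library left out 2 to 5 were higher and 1 to 4 lower. The replicate numbers are not shown to pair the samples, since same-numbered libraries had correlations of their deviations from -0.11 to 0.25. With the replicate number as a block, 2 entries were higher in PINCH1 mutants against controls and 0 lower in PINCH2 mutants against controls, and Nespas was at 1.16, Gnas at -0.73 and Gm20721 at 0.07 in PINCH1 mutants against controls, with the block changing no call of a member.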
